A study of Mus musculus with 8 samples.

Results

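The genes of glycolysis, of glucose and lactate transport and of the response to low oxygen were examined as a set of 39 listed genes, out of 55487 gene identifiers counted in 8 mouse libraries. The members were taken from the count table by gene symbol, and 38 of the 39 had enough counts to be tested. The libraries came from E14-Tg2a, a mouse embryonic stem cell line, differentiated towards precardiac mesoderm in serum-free medium and harvested on day 6. The parental line (genotype WT) and the derived line 4D (genotype Tbx1-/-) gave 4 biological replicates each, called parental and mutant libraries below, and both went through the same differentiation treatment. All mutant libraries came from the single line 4D, so a property of that line and an effect of the genotype cannot be told apart. In such mixed cultures, fewer cells of a type and less RNA per cell cannot be told apart either.

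Glycolysis splits glucose into pyruvate in the cytosol, and lactate dehydrogenase turns pyruvate into lactate, which leaves the cell through monocarboxylate transporters. Hypoxia-inducible factors (HIFs) are pairs of an oxygen-sensitive alpha subunit, such as Hif1a, and a stable beta subunit. Prolyl hydroxylases of the Egln family mark the alpha subunit for breakdown when oxygen is present, and in low oxygen HIF binds a short core sequence near glycolytic genes and raises their transcription. Pluripotent cells and early mesoderm rely strongly on glycolysis, whereas maturing cardiomyocytes shift to oxidative metabolism.

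In the mutant line, RNA of some genes of glucose uptake, upper glycolysis and lactate handling fell. No listed gene of lower glycolysis passed the edgeR test, although all 5 had log2 fold changes below 0. Their median log2 fold change was -0.62, near that of upper glycolysis at -0.68, so passing the threshold does not set these groups apart. Of the 38 members tested, 10 fell and 0 rose at an adjusted p under 0.05 in edgeR's quasi-likelihood test with Benjamini-Hochberg adjustment over all 13280 genes tested. Over all tested genes 1.42% were called, 0.67% lower and 0.745% higher. The members that fell were the glucose transporter Slc2a3, the upper glycolytic enzymes Pfkl, Pfkp, Aldoa, Aldoc and Tpi1, the lactate dehydrogenase subunit Ldha, the lactate transporters Slc16a1 and Slc16a3, and the cytokine Mif. Their mutant levels were between 30.8% and 62.4% of the parental level. The median log2 fold change of the tested members was -0.60, against 0.001 over all tested genes, and 30 of 38 were below 0, against 49.8% of all tested genes. The list of members was chosen with earlier results of these data known, so these contrasts with all tested genes are not independent of that choice. An unadjusted p under 0.05 was found for 11.9% of all tested genes, 5.92% with a lower mutant level, and for 23 members, 3 of them with a higher mutant level (Hk1, Pfkfb4 and Ndrg1), and DESeq2 and limma-voom also called 0 members higher.

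The core sequence bound by HIF was looked for in the 250 bases before each annotated gene start, and all 5 windows of members with at least 4 matches are shown. Of these, 2 belong to members that fell (Ldha and Slc16a1) and 3 to members not called (Bnip3, Ankrd37 and Pdk3). Sequences are from RefSeq on build GRCm38.p6, written 5′ to 3′ in the direction of the gene. Capitals mark ACGTG and GCGTG on either strand. CACGTG reads as ACGTG on both strands, and such overlapping matches were counted separately.
Ldha (chr7:46845554-46845803, plus strand): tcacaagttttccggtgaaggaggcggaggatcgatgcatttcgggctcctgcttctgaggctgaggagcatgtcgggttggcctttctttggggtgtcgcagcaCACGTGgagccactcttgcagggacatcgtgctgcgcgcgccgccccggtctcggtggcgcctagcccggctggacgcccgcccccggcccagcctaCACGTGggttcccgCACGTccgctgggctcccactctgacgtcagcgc
Slc16a1 (chr3:104638414-104638663, plus strand): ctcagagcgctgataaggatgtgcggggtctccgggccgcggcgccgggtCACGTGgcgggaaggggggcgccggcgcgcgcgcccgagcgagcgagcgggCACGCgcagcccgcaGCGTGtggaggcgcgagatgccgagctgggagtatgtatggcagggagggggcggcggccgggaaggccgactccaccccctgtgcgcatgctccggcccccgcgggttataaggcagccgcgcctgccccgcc
Bnip3 (chr7:138909507-138909756, minus strand): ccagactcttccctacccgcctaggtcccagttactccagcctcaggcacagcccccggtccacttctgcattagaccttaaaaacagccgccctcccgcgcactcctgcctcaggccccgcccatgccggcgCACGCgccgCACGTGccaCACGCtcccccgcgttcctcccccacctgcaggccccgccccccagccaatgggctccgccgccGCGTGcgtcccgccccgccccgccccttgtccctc
Ankrd37 (chr8:45999851-46000100, minus strand): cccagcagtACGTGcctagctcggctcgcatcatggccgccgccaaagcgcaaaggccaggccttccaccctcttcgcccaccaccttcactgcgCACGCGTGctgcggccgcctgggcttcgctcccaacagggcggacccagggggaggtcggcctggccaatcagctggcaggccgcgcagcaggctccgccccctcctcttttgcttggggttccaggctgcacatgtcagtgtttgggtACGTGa
Pdk3 (chrX:93832151-93832400, minus strand): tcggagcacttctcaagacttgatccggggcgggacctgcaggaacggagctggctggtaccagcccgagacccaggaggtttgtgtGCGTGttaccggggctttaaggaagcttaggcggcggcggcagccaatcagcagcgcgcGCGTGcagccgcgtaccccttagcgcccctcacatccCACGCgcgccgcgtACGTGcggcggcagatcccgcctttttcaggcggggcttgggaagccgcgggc

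In the Ldha window CACGTG occurs at 2 places, with a single further ACGTG on the opposite strand close to the gene start. Slc16a1 has CACGTG once with GCGTG on each strand. Bnip3 has CACGTG once and GCGTG at 3 places, and Ankrd37 and Pdk3 hold both core forms without CACGTG. The RefSeq table held windows for 36 of the 39 members, 54 windows in all because some genes have several starts. It had no entry for Slc2a3, Bnip3l and Ndrg1. At least 1 match was present in 75.9% of the members' windows, against 56.2% of the 12207 windows of tested genes and 38.6% of all 32851 windows. The members were listed as glycolytic and HIF target genes, so this comparison is not independent of how the list was chosen. Among members that fell, 7 of 9 had a match in at least 1 window, and Mif and Tpi1 had none. Among members not called, 24 of 26 had a match. These 2 counts are per gene, so genes with several starts had more chances of a match. No per-gene share over all tested genes was taken, and the shares of windows above are not comparable. At least 2 matches were present in 4 of 13 windows (30.8%) of members that fell and in 19 of 40 windows (47.5%) of members not called. Windows of the same gene can overlap, as for Aldoa and Eno1, so the same site can count more than once. CACGTG was present in 11.1% of the members' windows, in 8.35% of the windows of tested genes and in 6.02% of all windows. A match describes letters only and was not tested for binding.

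Depth ranged from 3803561 to 6293907 counts per library. Levels are given as CPM, counts per 1000000 after scaling by the trimmed mean of M values (TMM). Each library was sequenced from transcript 3′ ends, so CPM does not grow with transcript length. Mutant library 4, the shallowest, correlated less with the others (0.857 to 0.881 across genes) than the other 7 did among themselves (0.92 to 0.944). It had counts for 14850 genes, against 18213 to 19134 in the others. Its top gene took 17.75% of its counts, against 8.90% to 12.98%. Without this library the median log2 fold change of the tested members was -0.48. Tbx1 checked the labels, with 39, 65, 38 and 22 counts in parental libraries 1 to 4, and 3, 0, 1 and 0 counts in mutant libraries 1 to 4. All 12 listed precardiac mesoderm markers were detected, with summed levels of 1610 to 2110 CPM in the parental line against 1670 to 1980 CPM in the mutant line. Of the 12 markers 1 was called higher, beside 0.745% of all tested genes.

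Seen library by library, the summed level of the 39 members was 6281, 6204, 6112 and 5250 CPM in parental libraries 1 to 4. The mutant libraries 1 to 4 summed to 3516, 4884, 3462 and 3188 CPM. The lines did not overlap, and the mutant mean was 63.1% of the parental mean. Mutant library 2 lay nearest to the parental libraries. It was the highest mutant library for 9 of the 10 members that fell, against 30.4% of all tested genes with a log2 fold change below 0. It was also the highest for 24 of the 38 tested members. These include 8 members with a log2 fold change above 0, and no share over all tested genes of either sign was taken. The median log2 deviation of the tested members from the parental mean was -0.11 in mutant library 2 and -0.61, -0.71 and -0.97 in mutant libraries 1, 3 and 4. Without mutant library 2, 14 members fell, beside 0.871% of all tested genes, and without mutant library 4, 9 fell, beside 0.608%.

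**Figure D1:**
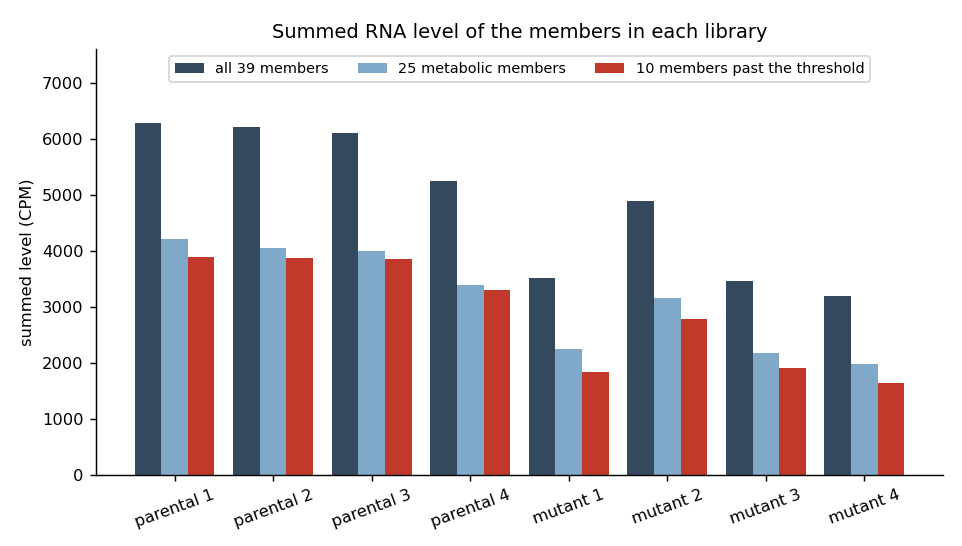
Summed level in CPM (vertical axis) of all 39 members, of the 25 metabolic members and of the 10 members past the threshold, as bars for each of the 8 libraries. The 39 members sum to between 5250 and 6281 CPM in the parental libraries and to between 3188 and 4884 CPM in the mutant libraries, with mutant library 2 the highest of the latter.

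Glucose enters through the facilitative transporters Slc2a1 (GLUT1) and Slc2a3 (GLUT3), and both had lower mutant means, but only the change of Slc2a3 passed the threshold. Slc2a3 (ENSMUSG00000003153.10, chromosome 6, 122727809 to 122801640, minus strand) had 363, 290, 308 and 261 CPM in parental libraries 1 to 4. Its mutant libraries 1 to 4 had 149, 212, 159 and 132 CPM. Every mutant library was below every parental library, and the log2 fold change was -0.91 ± 0.14 (SE) at an adjusted p of 0.00174 by edgeR. Slc2a1 had 375, 321, 234 and 187 CPM in the parental line against 197, 196, 110 and 129 CPM in the mutant line. Its lines overlapped at parental library 4, and a log2 fold change of -0.82 ± 0.20 came with adjusted p = 0.0515 in edgeR, just above the threshold.

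The upper part of glycolysis, from hexokinase to triose phosphate isomerase, held 5 of the 10 falls. Phosphofructokinase catalyses the committed step and is built from liver (Pfkl), muscle (Pfkm) and platelet (Pfkp) subunits. Pfkl (ENSMUSG00000020277.10, chromosome 10, 77986947 to 78010083, minus strand) had 169, 160, 174 and 163 CPM in parental libraries 1 to 4, against 70.6, 128, 59.6 and 69.3 CPM in the mutant libraries in the same order. The parental values lay close together and above all mutant values, and mutant library 2 stood above the other 3. Its log2 fold change was -1.03 ± 0.18 (SE) at an adjusted p of 0.00552 by edgeR. Pfkp (ENSMUSG00000021196.14, chromosome 13, 6579768 to 6648777, minus strand) had 84.2, 46.5, 31.3 and 35.2 CPM in the parental line against 13.4, 31.6, 19.1 and 10.4 CPM in mutant libraries. Mutant library 2 just exceeded parental library 3, so the lines overlapped. The log2 fold change of -1.40 ± 0.33 came with adjusted p = 0.04 in edgeR, and the call was lost in the fits that left out parental library 1 or 2 or mutant library 1, 3 or 4, with adjusted p up to 0.178, and with scaling by library size alone. Pfkm had 27.9 ± 8.34 CPM in the parental line against 31.0 ± 3.96 CPM in mutant libraries (SD, n = 4), with a log2 fold change of 0.14 ± 0.24.

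Aldolase splits the 6-carbon sugar into triose phosphates, and both of its listed genes fell. Aldoa (ENSMUSG00000030695.16, chromosome 7, 126795234 to 126800751, minus strand), the form found in most tissues, had 676, 639, 600 and 566 CPM in the parental line against 344, 465, 396 and 327 CPM in the mutant line. Aldoc (ENSMUSG00000017390.15, chromosome 11, 78322968 to 78327781, plus strand), best known from brain, had 42.9, 37.5, 31.9 and 29.9 CPM in the parental line against 7.39, 20.9, 7.08 and 8.52 CPM in mutant libraries. For both genes the lines were fully separated, and in both mutant library 2 was the highest mutant library. The log2 fold change was -0.69 ± 0.11 (SE, edgeR adjusted p = 0.00272) for Aldoa and -1.70 ± 0.32 (edgeR adjusted p = 0.00713) for Aldoc. Tpi1 (ENSMUSG00000023456.16, chromosome 6, 124810586 to 124814296, minus strand), which interconverts the triose phosphates, had 214, 228, 244 and 187 CPM in the parental line against 134, 193, 115 and 102 CPM in the mutant line. Mutant library 2 lay inside the parental range. Its log2 fold change of -0.68 ± 0.16 came with adjusted p = 0.04 in edgeR. That call was lost with library size alone and in 6 of the 8 fits that left out a library, namely parental 1, 2 or 3 or mutant 1, 3 or 4, with adjusted p up to 0.154.

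Hexokinases trap glucose in the cell as glucose 6-phosphate. Hk2, the inducible form, had 117, 114, 111 and 101 CPM in the parental line against 59.1, 101, 80.5 and 54.2 CPM in mutant libraries, with a log2 fold change of -0.59 ± 0.17 (SE, edgeR adjusted p = 0.108). Hk1, the form expressed in most tissues, had means of 24.1 ± 3.85 CPM in the parental line against 33.05 ± 6.27 CPM in mutant libraries (SD, n = 4) and a log2 fold change of 0.46 ± 0.22 (SE), at an adjusted p of 0.417 by edgeR. Gpi1, which converts glucose 6-phosphate to fructose 6-phosphate, had a log2 fold change of -0.29 ± 0.12 at an adjusted p of 0.352 by edgeR. None of these hexokinase or isomerase values passed the threshold in edgeR, but Hk2 was called lower with DESeq2 (adjusted p = 0.0374) and limma-voom (adjusted p = 0.049).

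**Figure D2:**
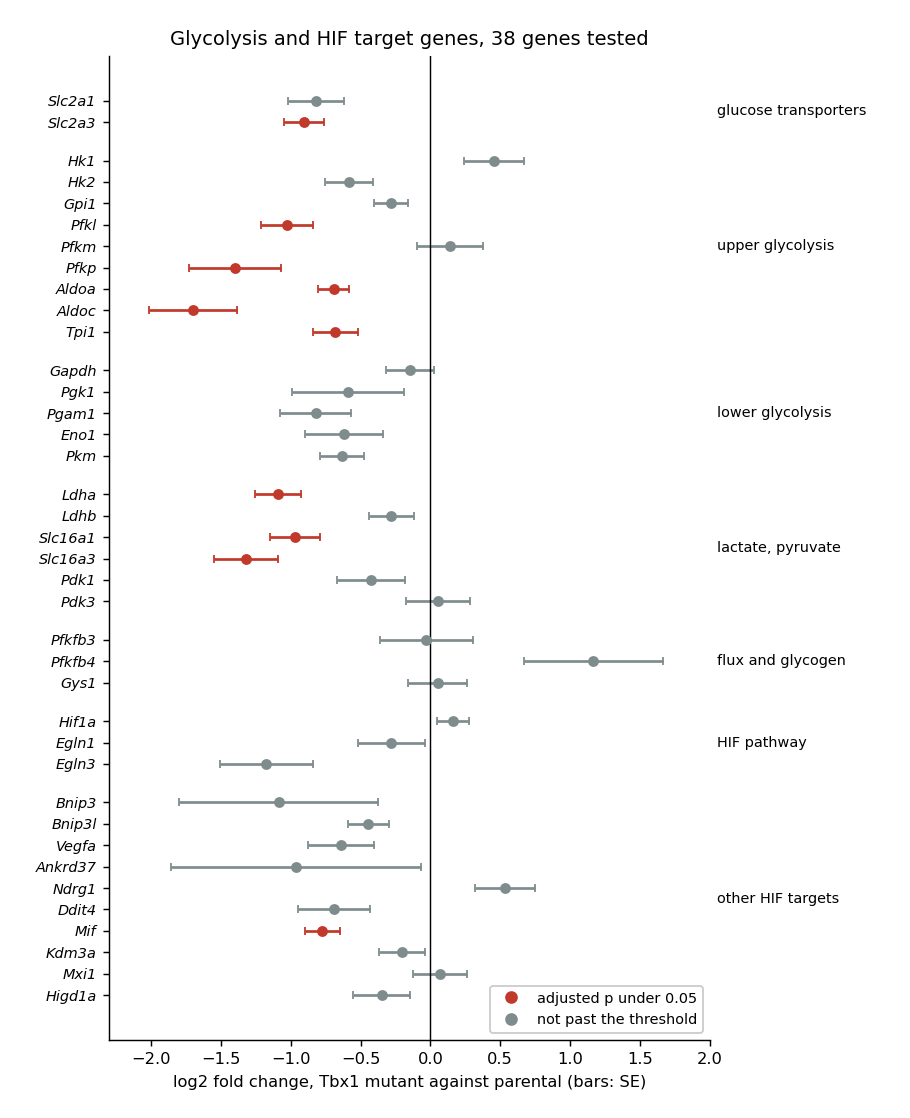
Log2 fold change of the mutant against the parental line (horizontal axis) for the 38 members tested, grouped by role, with bars of 1 SE from edgeR and red points for the 10 members with an adjusted p under 0.05. All red points lie left of 0, from -1.70 for Aldoc to -0.68 for Tpi1, and 8 grey points lie right of 0.

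Lower glycolysis turns the triose phosphates into pyruvate and yields ATP, and none of its 5 listed genes passed the threshold, although all 5 had log2 fold changes below 0. Pkm, pyruvate kinase, had 424, 397, 436 and 399 CPM in parental libraries 1 to 4, against 197, 389, 220 and 262 CPM in the mutant libraries in the same order. The lines did not overlap, but mutant library 2 came close to the lowest parental value. The log2 fold change of -0.63 ± 0.16 (SE) came with adjusted p = 0.0527 in edgeR, and Pkm was called lower with DESeq2 (adjusted p = 0.00452) and limma-voom (adjusted p = 0.00813). Pgam1, phosphoglycerate mutase, had 33.5, 25.5, 27.1 and 27.6 CPM in the parental line against 11.1, 23.1, 16.7 and 13.5 CPM in mutant libraries, again without overlap, and a log2 fold change of -0.82 ± 0.25 at an adjusted p of 0.139 by edgeR. Pgk1, phosphoglycerate kinase, had only 6.32 to 26.6 CPM in the parental line against 7.08 to 16.8 CPM in mutant libraries, and its log2 fold change was -0.59 ± 0.40. Eno1, enolase, had a log2 fold change of -0.62 ± 0.28, and Gapdh, glyceraldehyde 3-phosphate dehydrogenase, -0.15 ± 0.17 at an adjusted p of 0.804 by edgeR.

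Several of these genes have near-identical copies in the genome, which bears on how their reads could be assigned. Of the 50-base stretches in the last 500 bases of the longest coding transcript, 90.5% were shared with transcripts of other genes for Gapdh, 75.2% for Eno1, 56.1% for Mif and 24.4% for Ldhb. For Pgk1 the share was 7.3%, for Gpi1 4.2% and for Aldoa 3.3%. The other 32 members, among them Ldha, Aldoc, Pfkl, Pfkp, Tpi1 and the listed transporters, shared no such stretch. The level and the change of Gapdh, Eno1, Mif and Ldhb are therefore uncertain, because the counting could have split or dropped reads.

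Lactate handling held 3 falls. Ldha (ENSMUSG00000063229.15, chromosome 7, 46841475 to 46855627, plus strand) encodes the subunit of lactate dehydrogenase that favours lactate formation. Its parental libraries 1 to 4 had 652, 696, 747 and 541 CPM, and its mutant libraries 1 to 4 had 281, 455, 272 and 228 CPM. The lowest parental value stayed above the highest mutant value, that of library 2. The log2 fold change was -1.09 ± 0.16 (SE) at an adjusted p of 0.0014 by edgeR, the smallest among the members. Ldhb, the subunit known for the reverse reaction, had 61.3 ± 2.55 CPM in the parental line against 50.5 ± 8.26 CPM in mutant libraries (SD, n = 4), with a log2 fold change of -0.28 ± 0.16 (SE) and an edgeR adjusted p of 0.533.

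The proton-coupled monocarboxylate transporters Slc16a1 (MCT1) and Slc16a3 (MCT4) carry lactate across the membrane, and Slc16a3 is known as an exporter of highly glycolytic cells. Slc16a3 (ENSMUSG00000025161.16, chromosome 11, 120948480 to 120960868, plus strand) had 152, 145, 112 and 120 CPM in the parental line against 46.2, 86.3, 50.3 and 28.3 CPM in mutant libraries. Slc16a1 (ENSMUSG00000032902.1, chromosome 3, 104638668 to 104658462, plus strand) had 162, 172, 158 and 155 CPM in the parental line against 82.3, 98.5, 101 and 46.7 CPM in mutant libraries. The lines were separated for both transporters, with mutant library 4 the lowest. The log2 fold change was -1.32 ± 0.23 (SE, edgeR adjusted p = 0.00449) for Slc16a3 and -0.97 ± 0.18 (edgeR adjusted p = 0.00642) for Slc16a1. The pyruvate dehydrogenase kinases, which inhibit the pyruvate dehydrogenase complex, did not pass. Their log2 fold changes were -0.43 ± 0.25 for Pdk1 and 0.05 ± 0.23 for Pdk3.

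**Figure D3:**
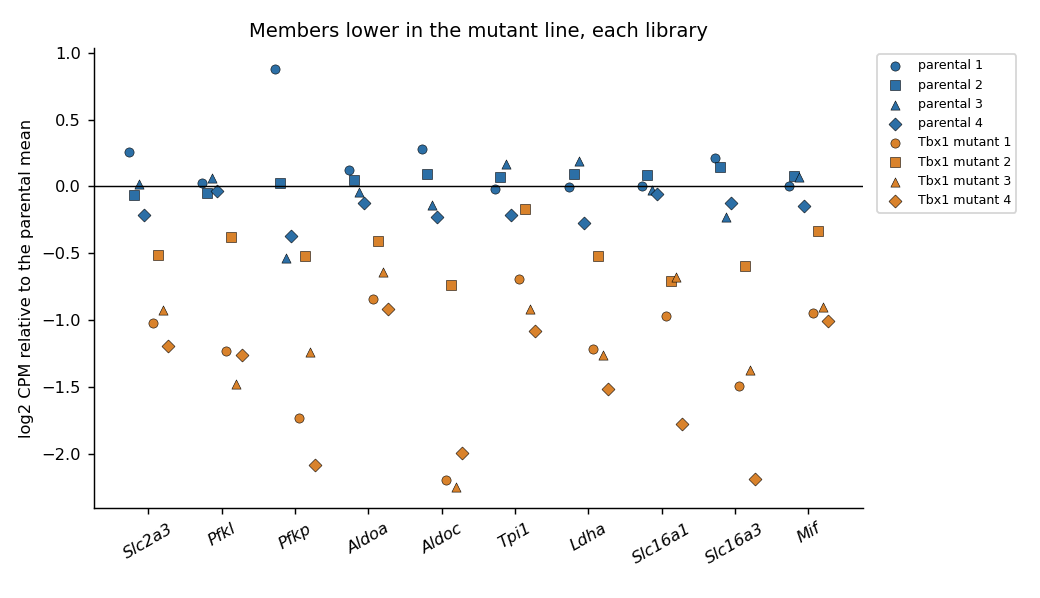
Log2 CPM of the 10 members past the threshold minus the gene's parental mean (vertical axis, prior count of 2), with blue symbols for parental and orange symbols for mutant libraries, and a symbol shape for each replicate number. The orange squares of mutant library 2 lie above the other orange symbols in 9 genes, all but Slc16a1, and the lines overlap for Pfkp and Tpi1.

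Enzymes that set glycolytic flux or store glucose showed no called change. Pfkfb3 and Pfkfb4 make and break fructose 2,6-bisphosphate, the activator of phosphofructokinase. Pfkfb4 had 1.64, 3.59, 8.78 and 3.79 CPM in the parental line against 10.9, 8.50, 7.26 and 13.8 CPM in mutant libraries, a log2 fold change of 1.17 ± 0.50 (SE) at an adjusted p of 0.347 by edgeR. This was the highest log2 fold change among the members, at 9 to 65 counts per library. Pfkfb3 and the glycogen synthase gene Gys1 had log2 fold changes of -0.03 ± 0.33 and 0.05 ± 0.21.

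Related members were set against each other within each library, which needs no scaling between libraries. These 6 ratios were chosen after the values were seen, and most have a member that fell as their first gene. Their direction was therefore largely known beforehand, and the p-values below do not allow for that choice. The log2 ratio of Ldha to Ldhb counts was 3.37, 3.56, 3.55 and 3.20 in parental libraries 1 to 4, against 2.74, 3.07, 2.18 and 2.33 in the mutant libraries in the same order. The lines did not overlap, and the mutant mean was lower by a log2 difference of -0.84 ± 0.22 (SE, n = 4 per line, two-sided exact permutation p = 0.0286, the smallest possible, 0.0572 after Benjamini-Hochberg adjustment over the 6 ratios). Aldoc to Aldoa differed by -1.14 ± 0.29 and Pfkl to Pfkm by -1.29 ± 0.39, each without overlap. Both had the same exact permutation p of 0.0286 and adjusted p of 0.0572. The Pfkl to Pfkm ratio of parental library 4 was 3.38, against 2.38 to 2.4 in the other parental libraries. For Hk2 to Hk1 the difference was -1.08 ± 0.33, with mutant library 2 inside the parental range (exact permutation p = 0.0571, adjusted 0.0856). For the transporter pairs the differences were -0.38 ± 0.20 for Slc16a3 to Slc16a1 and -0.10 ± 0.25 for Slc2a3 to Slc2a1, with overlapping lines (exact permutation p = 0.114 and 0.686, adjusted 0.137 and 0.686). No adjusted value was under 0.05. Ldhb counts carry the uncertainty given above.

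**Figure D4:**
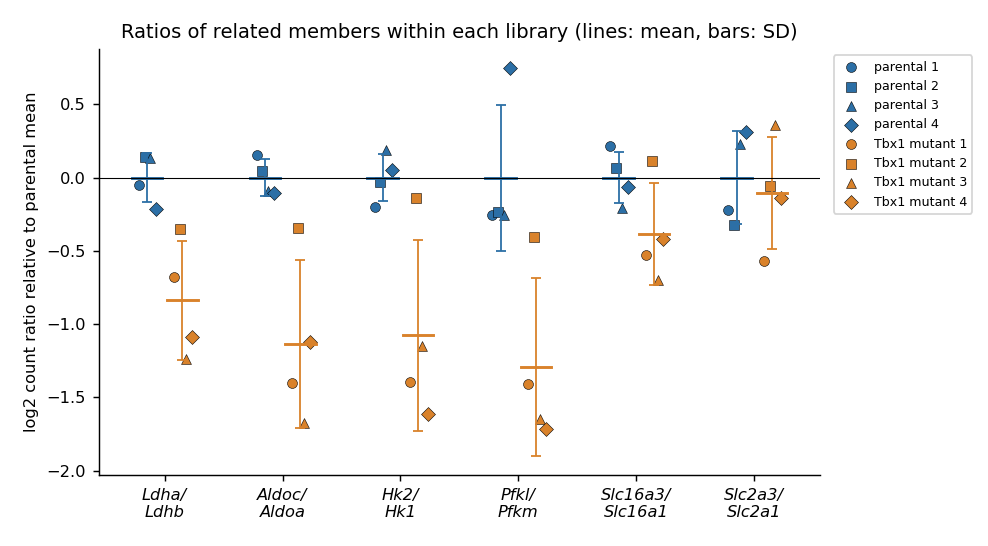
Log2 ratio of the counts of 2 related genes in each library relative to the parental mean (vertical axis) for 6 pairs, with blue symbols for parental and orange symbols for mutant libraries, lines for means and bars for the SD (n = 4). The lines are apart for Ldha/Ldhb, Aldoc/Aldoa and Pfkl/Pfkm and overlap for the other 3 pairs.

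The components of oxygen sensing among the members did not pass the threshold. Hif1a, the alpha subunit whose protein rather than RNA is chiefly controlled by oxygen, had 132, 146, 124 and 135 CPM in parental libraries 1 to 4, against 157, 140, 143 and 160 CPM in the mutant libraries in the same order. The lines overlapped, with a log2 fold change of 0.16 ± 0.11 (SE) and an edgeR adjusted p of 0.635. The protein-coding gene Gm49321 overlaps Hif1a on the same strand, and reads from any exon common to both could not be told apart. Whether they have such an exon was not tested, but the examined transcript end of Hif1a shared no stretch with transcripts of other genes. Annotated genes of other types overlap Slc2a1, Slc2a3, Pfkm, Pkm, Slc16a1 and Pfkfb3 on the same strand, and these members shared no such stretch either. Egln3, a prolyl hydroxylase gene that is itself a HIF target, had 26.9, 26.7, 17.6 and 23.8 CPM in the parental line against 13.6, 13.9, 10.2 and 3.85 CPM in mutant libraries. All its mutant libraries were lower, but the log2 fold change of -1.17 ± 0.33 came with adjusted p = 0.0935 in edgeR. Egln1, the main hydroxylase acting on HIF, had a log2 fold change of -0.28 ± 0.24.

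Among the 11 other HIF targets, 10 were tested and 1 fell. Mif (ENSMUSG00000033307.7, chromosome 10, 75859353 to 75860240, minus strand), a cytokine induced in hypoxia, had 1381, 1453, 1447 and 1243 CPM in the parental line against 715, 1091, 737 and 685 CPM in the mutant line. The lines were separated, with mutant library 2 well above the other 3. The log2 fold change of Mif was -0.78 ± 0.12 (SE, edgeR adjusted p = 0.00237). Both its level and its change carry the uncertainty from shared sequence given above. Vegfa, the angiogenic growth factor, had 63.4 ± 8.66 CPM in the parental line against 40.5 ± 16.8 CPM in mutant libraries (SD, n = 4), a log2 fold change of -0.64 ± 0.24 (SE) at an adjusted p of 0.251 by edgeR. Ddit4, an inhibitor of mTORC1 signalling, had 106 ± 21.8 and 65.9 ± 35.3 CPM (SD, n = 4), with mutant library 2 at 117 CPM, and a log2 fold change of -0.69 ± 0.26 (SE). The mitophagy receptor genes Bnip3l and Bnip3 had log2 fold changes of -0.45 ± 0.15 and -1.08 ± 0.71. Bnip3l was lower in every mutant library, at an adjusted p of 0.175 by edgeR. Bnip3 was low throughout, at 19 to 45 counts in parental and 0 to 28 counts in mutant libraries. Ndrg1, a stress-responsive gene linked to differentiation, went the other way, from 16.6 to 23.8 CPM in parental to 25.3 to 35.6 CPM in mutant libraries, without overlap and with a log2 fold change of 0.53 ± 0.22 (edgeR adjusted p = 0.318).

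The last members of this group lay near 0 or were too low to judge. The histone demethylase gene Kdm3a, the MYC antagonist gene Mxi1 and the mitochondrial inner membrane gene Higd1a had log2 fold changes of -0.20 ± 0.16, 0.07 ± 0.19 and -0.35 ± 0.20 (SE), with edgeR adjusted p of at least 0.545. Ankrd37 had 0 to 30 counts per library, with a log2 fold change of -0.96 ± 0.89. Adm, the vasodilator adrenomedullin, had 0 to 8 counts per library and was not tested, so that no change could have been detected from so few reads. In all, parental and mutant libraries were fully separated in 13 of the 38 tested members, 12 lower and 1 higher in the mutant line. Over all tested genes 7.52% did not overlap, 4.04% lower and 3.49% higher. Without mutant library 2 the count of non-overlapping members was 22, and 13.1% of all tested genes then did not overlap.

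Other genes of the pathway, from lists holding 137 genes outside the members, showed few called changes. Of the 117 tested, 13 of them further glycolytic isozymes, 1 isozyme fell and 0 rose, beside 0.67% lower and 0.745% higher over all tested genes. The median log2 fold change of the 117 was 0.002. At an unadjusted p under 0.05 in the edgeR test there were 18, of which 6 were higher. With DESeq2 5 fell, beside 1.48% of all tested genes, and 0 rose. The gene that fell was Pgam2 (ENSMUSG00000020475.3, chromosome 11, 5801640 to 5803733, minus strand), the muscle form of phosphoglycerate mutase. It had 64.9, 52.9, 26.8 and 28.0 CPM in parental libraries 1 to 4, against 20.5, 12.6, 16.9 and 9.07 CPM in the mutant libraries in the same order, a log2 fold change of -1.53 ± 0.31 (SE) at an adjusted p of 0.0124 by edgeR. The call was lost without parental library 1 or without parental library 2, with adjusted p up to 0.0692. Summed levels of the 10 listed cardiomyocyte markers, none of them called, were 595 to 3280 CPM in the parental line against 120 to 847 CPM in the mutant line, and their part in the Pgam2 result was not tested.

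List by list, 0 of 15 genes of HIF subunits and oxygen sensing, 0 of 40 other known HIF targets, 0 of 10 genes of the pyruvate dehydrogenase complex and pyruvate entry, and 0 of 10 pentose phosphate and gluconeogenesis genes passed the edgeR test. The same held for 0 of 18 genes of the tricarboxylic acid cycle and 0 of 11 of the MYC and MAX network. Over all tested genes only 1.42% were called, so 0 calls in lists this short do not set them apart. Unadjusted p under 0.05 was found for 1, 8, 0, 1, 2 and 4 genes of these lists in the same order, against 11.9% of all tested genes. All 8 other known HIF targets among them were lower, against 5.92% of all tested genes, and all 4 of the MYC and MAX network were higher. The medians of the log2 fold change were 0.04, -0.08, -0.04, -0.14, 0.03 and 0.19. Among the member groups the medians ran from -0.86 for glucose transporters through -0.28 for the HIF pathway components to 0.05 for flux and glycogen enzymes. Chosen after their values were seen, 3 genes came closest to the threshold. Cox4i2, a cytochrome oxidase subunit induced in hypoxia, had 16.2, 13.6, 18.0 and 14.1 CPM in the parental line against 1.68, 8.06, 1.09 and 6.60 CPM in mutant libraries, without overlap and at an adjusted p of 0.0784 by edgeR. Rsbn1 and the transketolase gene Tkt had log2 fold changes of -0.61 ± 0.16 and -0.45 ± 0.12 (SE), with edgeR adjusted p of 0.0708 and 0.0751.

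**Figure D5:**
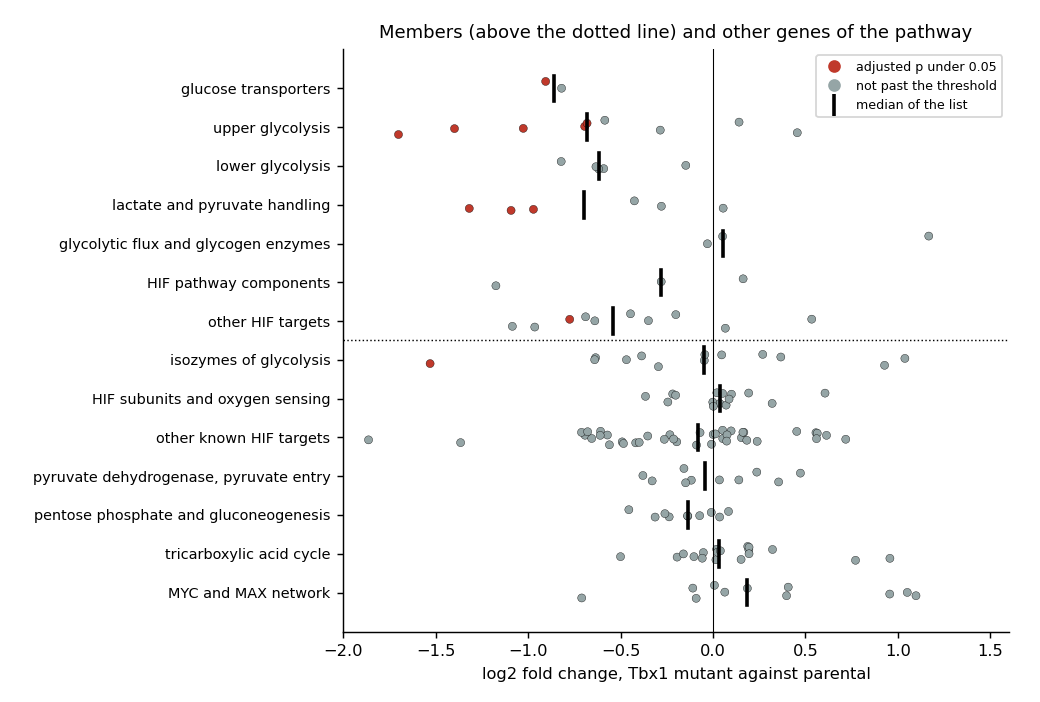
Log2 fold change of the mutant against the parental line (horizontal axis) for each tested gene of the 7 member groups, above the dotted line, and of the 7 lists of other pathway genes, below it, with black bars for medians and red points for genes with an adjusted p under 0.05. The red points below the line are limited to Pgam2 at -1.53, and the medians of the lower lists lie between -0.14 and 0.19.

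Among the summed markers of other cell types, only those of primitive erythroid cells were fully separated between the lines. Summed levels of 8 primitive erythroid markers were 118 to 173 CPM in the parental line against 617 to 894 CPM in the mutant line. Of these 8 markers 3 were called higher, beside 0.745% of all tested genes. The lowest mutant sum was that of mutant library 2. For 9 definitive endoderm markers the sums were 313 to 577 CPM in the parental line against 261 to 329 CPM in the mutant line. These sums overlapped between the lines, with 2 markers called lower, beside 0.67% of all tested genes. Mutant library 2 was the lowest here, farthest below the parental range, whereas for the erythroid markers it lay nearest to that range. It was also the lowest mutant library for the endothelial (563 CPM) and precardiac mesoderm (1670 CPM) markers. For the cardiomyocyte markers mutant library 2 had 723 CPM, inside the parental range of 595 to 3280 CPM. The mutant libraries ran from 120 CPM, in mutant library 4, to 847 CPM for these markers. The sums overlapped between the lines for 8 endothelial markers (461 to 751 CPM in parental, 563 to 1060 CPM in mutant), 8 pluripotency markers (42.8 to 59.6 and 38 to 53.8 CPM) and 8 neural markers (44.2 to 62.4 and 27.5 to 54.9 CPM). No listed marker was at 0 counts in all 8 libraries. The part of these cell types in the levels of glycolysis and HIF target genes was not tested.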

How the data were processed

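PolyA RNA of 8 cultures was made into 3′ QuantSeq libraries. The authors deposited raw gene counts for each library, neither normalized nor pooled. Per the submitters' processing notes STAR, featureCounts and build mm10 were used, in roles and versions not given in the sources used here, and per the file headers each column stems from a sorted alignment file. The name of the deposited table states forward-strand counts.

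Identifiers were matched to GENCODE M21 (GRCm38), and 55227 of 55487 received a symbol. Aldoa is the symbol of 2 identifiers, and the second, with 1 count in all, was left out. Genes were filtered with filterByExpr, which left 13280 genes with 99.5% of counts. Libraries were scaled by TMM and compared with edgeR 4.0.16 (glmQLFit, glmQLFTest, R 4.3.3) with an intercept and the line, two-sided, with Benjamini-Hochberg adjustment over all tested genes and a threshold of 0.05. The fit was tested on simulated data. SE is the absolute log2 fold change over the square root of F. Ratios were compared by two-sided exact permutation over 70 assignments.

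Members, gene lists and markers were chosen with earlier results of these data known. The naming rule gave full values to called members and to the 5 others with the smallest p, and named up to 4 called genes per list of other pathway genes. No 2 replicates agreed within sampling noise (chi-square per degree of freedom 7.04 to 24.2 in 12 pairs). Replicate numbers are shared by the lines, but same-numbered deviations correlated above 0.1 in 1 of 4 pairs, so no block was used. Alternatives were RLE, upper-quartile and library-size scaling, 2 other filters, DESeq2 1.42.0, limma-voom (limma 3.58.1), a replicate block, a threshold of 0.01 and leaving out each library. P-values and intervals cover these libraries only, and reads without molecular identifiers are not independent molecules.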

Additional observations from a re-analysis of the deposited data

Results flagged for a closer look

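Each line's 4 libraries were screened for a single outlying value in each of the 39 members, 78 groups in all, and chance alone marks about 1 in 20 such groups. Mutant library 2 stood above the other mutant libraries for Pfkl (128 CPM against 59.6 to 70.6), Aldoc (20.9 CPM against 7.08 to 8.52) and Mif (1090 CPM against 685 to 737). Parental library 4 stood below the other parental libraries for Pfkm (15.6 CPM against 30.3 to 33.4).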

How the results depend on the processing

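The fall of Slc2a3, Pfkl, Aldoa, Aldoc, Ldha, Slc16a1, Slc16a3 and Mif passed an adjusted p of 0.05 in each of the 8 fits that left out a library, with RLE, upper-quartile and library-size scaling, with both other filters, with DESeq2 and limma-voom, and with the replicate block. None of these settings changed how reads were assigned to genes, so the uncertainty of Mif from shared sequence remains. Scaling moved the median of all genes by at most 0.03 (log2). The number of members that fell was 10 and became 16 with no low-count filter, where 0.864% of 26750 genes fell, and it was 8 to 14 when a library was left out, where 0.284% to 0.871% of all genes fell. It was 12 with the replicate number as a block, which added Slc2a1 (adjusted p 0.00112) and Pkm (0.0217), and 0.866% of all tested genes then fell. DESeq2 and limma-voom each called 13 members lower, beside 1.48% and 1.05% of all tested genes, with Pkm and Hk2 gained by both, Egln3 by DESeq2 and Slc2a1 by limma-voom. The count of other pathway genes that fell was 1 and became 0 at an adjusted p under 0.01. It was 7 with no filter (0.864% of all genes), 5 with DESeq2 (1.48%) and 3 with limma-voom (1.05%). When a library was left out it was 0 to 3, beside 0.284% to 0.871% of all genes. The block left that count at 1. Non-overlapping members numbered 13, and between 13 and 22 when a library was left out, where 10.2% to 13.1% of all genes did not overlap against 7.52% with all libraries. The cause of these shifts was not tested. Signs near 0 turned: Pdk3 was -0.009 with limma-voom. When a library was left out, Pfkm ranged from -0.056 to 0.229, Pdk3 from -0.13 to 0.22, Pfkfb3 from -0.39 to 0.17, Gys1 from -0.084 to 0.141, Mxi1 from -0.017 to 0.208 and the Slc2a3 to Slc2a1 ratio from -0.258 to 0.052. Depth limits Adm, Ankrd37, Bnip3 and Pfkfb4.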
